A study of Caenorhabditis elegans with 18 samples.

Results

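The RNA of 2 strains of Caenorhabditis elegans, each mutant for a different nuclear hormone receptor gene, was compared while both grew on the same inhibitor of respiration. The comparison sets 3 libraries of nhr-45(tm1307) animals on 0.3 µM antimycin against 3 libraries of nhr-178(gk1005) animals on 0.3 µM antimycin, 6 of the 18 libraries in the series, and holds no wild-type library. The same pair of strains on the solvent DMSO, 3 libraries each, and the wild-type strain N2 (WT) on antimycin and on DMSO, 3 libraries each, are given beside it. All animals were whole early adults grown from first-stage larvae on agar with the bacterium Escherichia coli HT115, after a synchronizing larval arrest of 18 h, with at least 1000 animals in each sample. No allele other than the mutation in its name is listed for either strain. How many times the strains were outcrossed is not given in the sources used here. The series text calls the libraries biological triplicates and does not say whether they came from separate cultures, so a p-value reflects only how much these libraries varied, which may be technical.

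Nuclear hormone receptors are transcription factors, many of which are switched by a small lipophilic ligand. Nematodes have a very large family of them, and several members control fat metabolism, moulting and the enzymes that clear foreign chemicals. Antimycin A blocks respiratory complex III, which passes electrons from ubiquinol to cytochrome c in mitochondria. In worms, a block of mitochondrial function turns on protective genes, among them mitochondrial chaperones and detoxification enzymes of the intestine and epidermis.

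The levels below are CPM, the deposited counts per gene with each library scaled to a common size by TMM factors. They compare libraries for 1 gene and are not divided by gene length. A gene was called where the Benjamini-Hochberg adjusted p of edgeR's quasi-likelihood test, over all 10981 genes that passed the filter on low counts, was below 0.05. A log2 fold change is nhr-45 over nhr-178, so a negative value means lower in nhr-45. Each one stands with its standard error (SE).

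Total counts were 8441572, 1772887 and 5669679 in nhr-45 animals on antimycin, against 4844259, 8679509 and 7050615 in nhr-178 animals on antimycin, and replicate 2 of nhr-45 was the smallest of the 18 libraries. On principal component 1, with 42.6% of the variance, the 3 nhr-45 libraries on antimycin lay between 77.1 and 87.3 and the other 15 between -31.9 and -1.36. The nhr-45 gene (WBGene00003635, chromosome X, 4656433 to 4660318, WBcel235 annotation) had 7.51, 4.83 and 6.47 CPM in nhr-45 animals, against 5.77, 5.75 and 6.97 CPM in nhr-178 animals on antimycin, and was not called (log2 0.08 ± 0.29 SE, adjusted p = 0.867). The nhr-178 gene (WBGene00017510, chromosome V, 1603906 to 1607953) was below the filter, with 1, 0 and 4 counts in nhr-45 animals, against 7, 7 and 8 counts in nhr-178 animals on antimycin, 2, 2 and 11 in WT on antimycin, and 0, 0 and 2 in nhr-178 animals on DMSO. Transcript counts of neither gene therefore check which library carries which mutation.

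The 2 mutants differed widely on antimycin. Of the tested genes, 2663 (24.3%) were called, 1725 (15.7%) higher and 938 (8.54%) lower in nhr-45. Of these, 1438 (13.1%) changed at least 2-fold, mostly upward: 1231 (11.2%) genes were called at least 2-fold higher and 207 (1.89%) at least 2-fold lower. Of the 10 genes with the largest decrease 7 were ugt, cyp or gst genes of detoxification, and of the 10 with the largest increase 6 were cuticle collagens. The median log2 fold change over all tested genes was -0.02. The shares over all tested genes, 15.7% higher and 8.54% lower, stand behind every count of list members below, and a share near them says nothing about a list. On DMSO the same test called 358 (3.26%) genes, 277 (2.52%) higher and 81 (0.738%) lower. The number of calls on DMSO depended on single libraries and was 224, 236 and 238 without replicate 1, 2 and 3 of nhr-178 on DMSO.

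**Figure D1:**
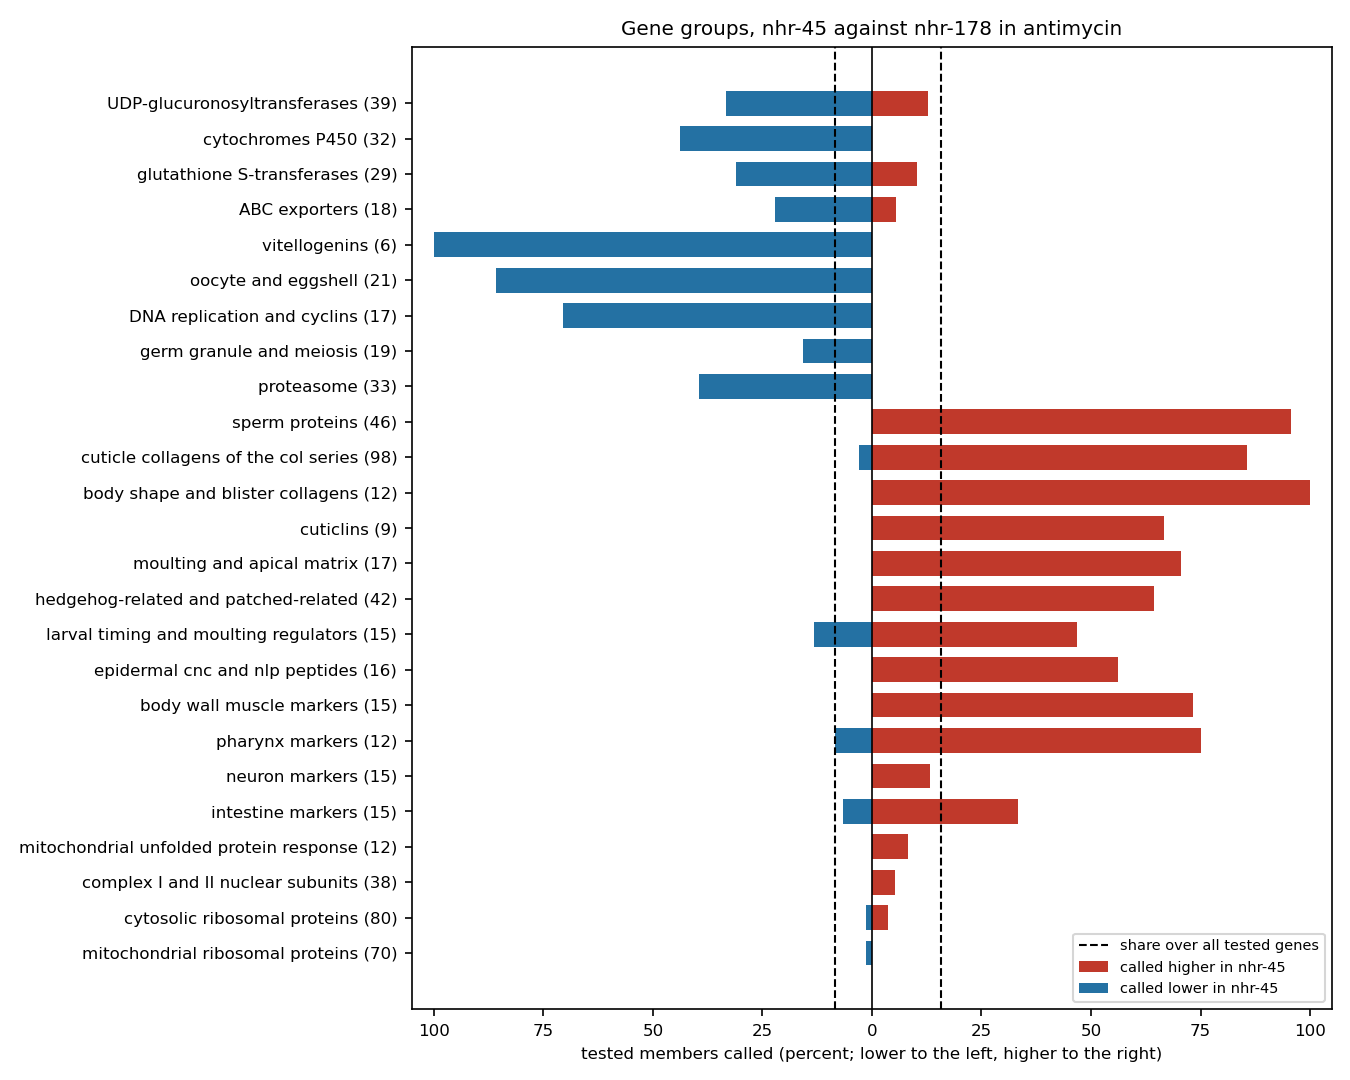
Members of 25 gene lists called higher (to the right) or lower (to the left) in nhr-45 than in nhr-178 animals on antimycin, as percent of the tested members, whose number is in parentheses. The dashed lines mark the shares over all tested genes, 15.7% higher and 8.54% lower. Vitellogenins, oocyte genes and cytochromes P450 extend to the left and collagens, sperm proteins and moulting genes to the right.

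Many genes that modify and export foreign chemicals were lower in nhr-45. UDP-glucuronosyltransferases attach a sugar to a compound so that it can be excreted, and 39 of the 65 genes in the table were tested. Of these, 13 (33.3%) were called lower and 5 (12.8%) higher, with a median log2 fold change of -0.22, against 8.54% lower, 15.7% higher and a median of -0.02 over all tested genes. The number of higher calls was 1 without replicate 1 of nhr-45 or without replicate 1 of nhr-178, and 3 without replicate 3 of nhr-45 or without replicate 2 or 3 of nhr-178.

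The gene ugt-9 (WBGene00020587, chromosome V, 4896048 to 4897969) had 4.69, 9.65 and 5.11 CPM in nhr-45 animals, against 1478, 1448 and 1542 CPM in nhr-178 animals on antimycin. The groups did not overlap, and the log2 fold change was -8.04 ± 0.28 (SE, adjusted p = 2.57e-18). WT on antimycin averaged 1956 CPM, close to nhr-178. On DMSO, ugt-9 averaged 6.52 CPM in nhr-45, 8.45 CPM in nhr-178 and 8.37 CPM in WT, and that difference was not called (adjusted p = 0.691). Between the media the contrast itself differed, by -7.70 ± 0.39 on the log2 scale (SE, adjusted p = 1.81e-13).

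Other transferases had the same order of groups at lower levels. ugt-61 had 1.17, 1.07 and 0.511 CPM in nhr-45, against 54.98, 48.96 and 45.12 CPM in nhr-178 (log2 -5.73 ± 0.34, SE, adjusted p = 2.05e-13). For ugt-62 the levels were 13.84, 13.41 and 13.96 CPM in nhr-45, against 92.9, 137.4 and 142.5 CPM in nhr-178 (log2 -3.17 ± 0.20, SE, adjusted p = 1.07e-12). WT on antimycin averaged 50.4 CPM for ugt-61 and 134.9 CPM for ugt-62. The change of ugt-1 was of the same size (log2 -5.85 ± 0.47, SE), but its reads could be shared with the near-identical ugt-2. The highest of the genes called in the other direction was ugt-30, at 2.70, 4.29 and 5.11 CPM in nhr-45, against 0.206, 1.13 and 1.71 CPM in nhr-178, and its call was lost without replicate 3 of nhr-45 or replicate 1 of nhr-178. Summed over the list, transferase transcripts came to 336.2, 333.0 and 307.6 CPM in nhr-45, against 1981, 2014 and 2141 CPM in nhr-178 and 2261 to 2842 CPM in WT on antimycin. Most of the sum in nhr-178 and WT on antimycin was ugt-9 alone, so the gap in the sums is mainly that of this gene. On DMSO the sums overlapped, at 215.1 to 273.1 CPM in nhr-45, 243.3 to 275.7 CPM in nhr-178 and 256.0 to 280.8 CPM in WT. There 1 member was called higher and 1 lower, the lower one being ugt-62. That call of ugt-62 was lost without replicate 1 or 2 of nhr-45 or replicate 2 of nhr-178 on DMSO.

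Cytochromes P450 oxidize lipids and foreign compounds, and 32 of 72 were tested. Of these, 14 (43.8%) were called lower and 0 higher by edgeR (1 higher at an unadjusted p below 0.05, 0 by DESeq2), with a median log2 fold change of -0.70. Members could pass the filter only through groups where they were high, and 4 were at 0 in either strain. The count therefore describes the genes tested and not the family, and the same holds for the other lists of detoxification genes. Lower calls were 9 with a stricter filter and 7 in thinned counts, which leave fewer genes to test. cyp-33C5 had 0.235, 1.61 and 0 CPM in nhr-45, against 150.1, 217.3 and 157.3 CPM in nhr-178 (log2 -9.04 ± 0.45, SE, adjusted p = 7.71e-15). Its close relatives make the split of reads among cyp-33C genes uncertain, and cyp-33C4 changed in the same direction (log2 -5.82 ± 0.55, SE). For cyp-25A2 the levels were 2.11, 0.536 and 0.511 CPM in nhr-45, against 46.5, 69.5 and 63.9 CPM in nhr-178 (log2 -5.50 ± 0.35, SE, adjusted p = 8.57e-13). WT on antimycin averaged 173.0 CPM for cyp-33C5 and 63.1 CPM for cyp-25A2, near the nhr-178 level in both cases. The summed P450 level was 129.3, 144.3 and 152.2 CPM in nhr-45, against 447.8, 538.2 and 471.2 CPM in nhr-178 on antimycin. On DMSO it was 176.0 to 196.2 CPM in nhr-45 and 186.7 to 214.1 CPM in nhr-178, and 1 member was called lower.

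**Figure D2:**
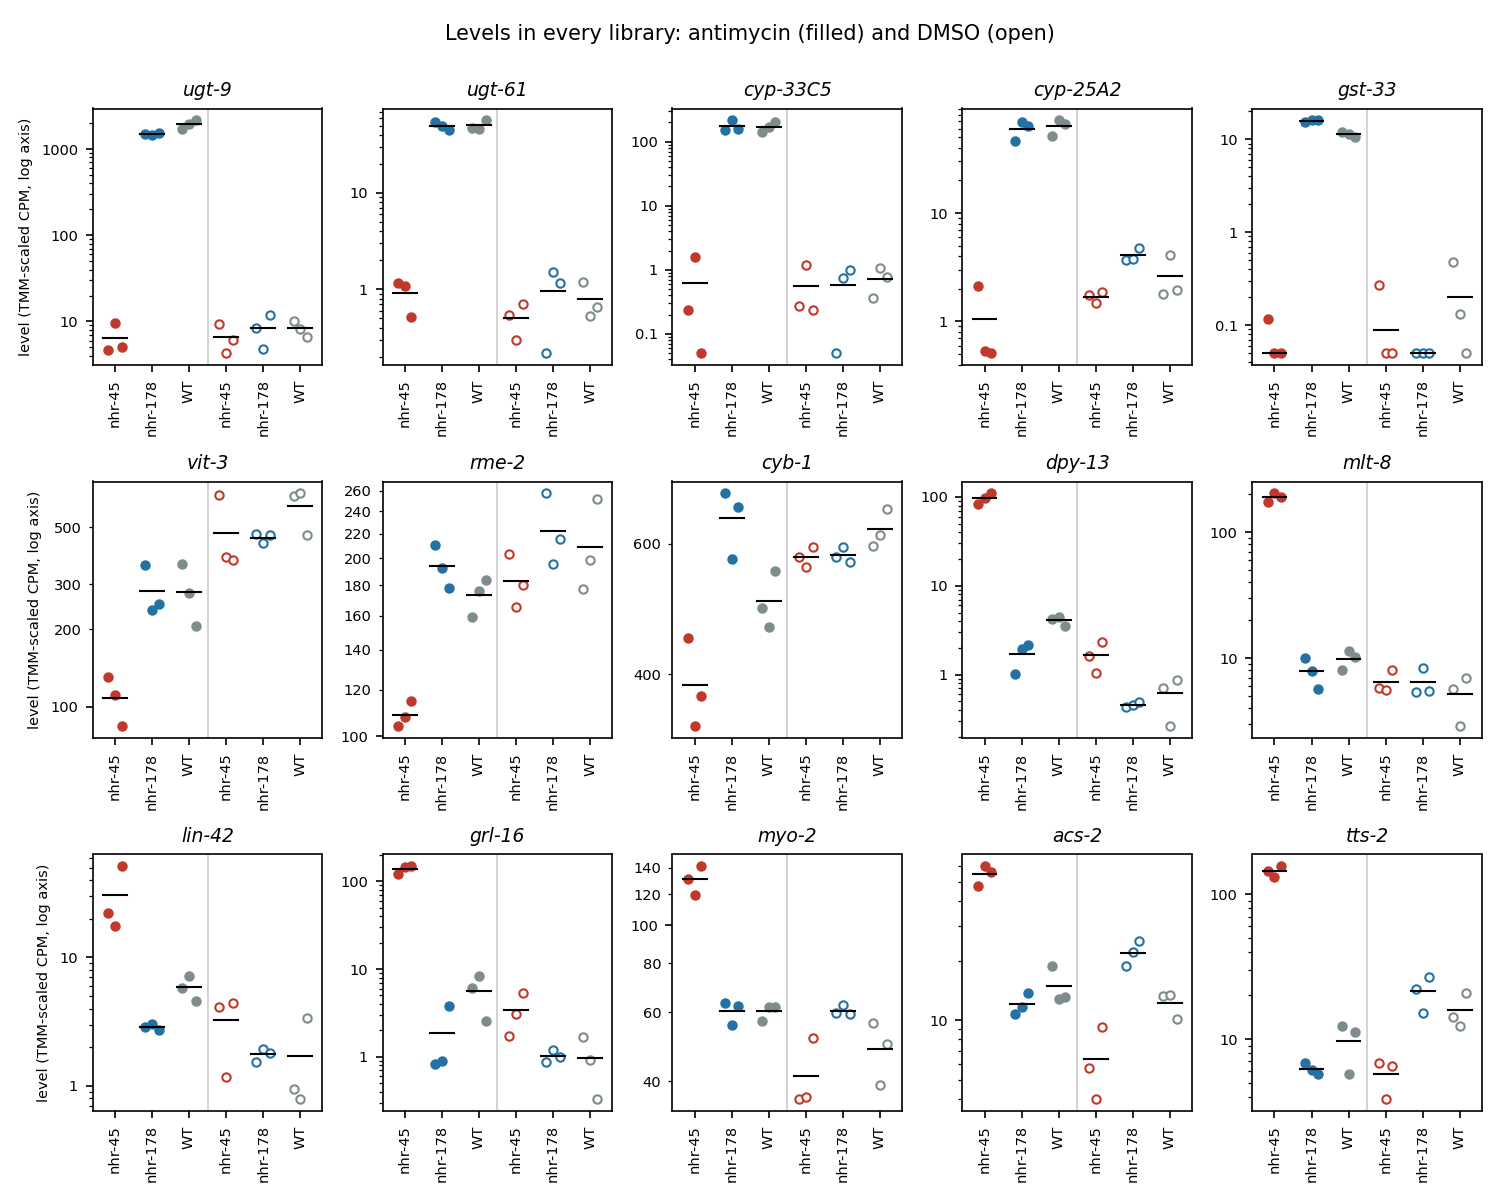
Level of 15 genes in each library, in CPM on log axes, with nhr-45, nhr-178 and WT from left to right, filled points for antimycin, open points for DMSO and a line at the mean of 3 libraries; levels below 0.05 CPM are drawn at 0.05. On antimycin the points of ugt-9, ugt-61, cyp-33C5, cyp-25A2 and gst-33 are low in nhr-45 and high in nhr-178 and WT, and those of dpy-13, mlt-8, grl-16 and tts-2 are high in nhr-45 alone.

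Glutathione S-transferases conjugate glutathione to reactive compounds. Of 29 tested members, 9 (31%) were lower and 3 (10.3%) higher, and no higher call was left without replicate 3 of nhr-45. Counts of gst-33 were almost absent from nhr-45, with 0.117, 0 and 0 CPM, against 15.24, 16.02 and 16.08 CPM in nhr-178. The ratio of summed counts was 257.9-fold lower in nhr-45, with a 95% exact interval of 45.96 to 10220 that covers counting error only. The stress reporter gene gst-4 went the other way, at 4.58, 2.68 and 5.96 CPM in nhr-45, against 2.06, 1.47 and 1.99 CPM in nhr-178 (adjusted p = 0.0178, but 0.115 without replicate 3 of nhr-45 and 0.0731 without replicate 2 of nhr-178), and it overlaps dhs-12.

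Of 18 tested ABC exporters, the pumps that move compounds out of cells, 4 (22.2%) were lower and 1 (5.56%) higher, against 8.54% and 15.7% over all tested genes. The P-glycoprotein gene pgp-9 had 1.99, 3.22 and 3.75 CPM in nhr-45, against 29.03, 35.65 and 29.89 CPM in nhr-178 (log2 -3.46 ± 0.34, SE, adjusted p = 7.36e-09). WT on antimycin was at 27.95 CPM, and on DMSO the means were 1.70 CPM in nhr-45, 0.813 CPM in nhr-178 and 0.910 CPM in WT. For pgp-9 the contrast differed between the media (log2 -4.48 ± 0.61, SE, adjusted p = 2.22e-05). The multidrug resistance protein gene mrp-4, which overlaps another gene, was lower by a smaller step (log2 -1.01 ± 0.18, SE).

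Flavin monooxygenases also oxidize foreign compounds. Of 4 tested, 2 were called higher, but 1 without replicate 1 or 3 of nhr-45 or replicate 2 or 3 of nhr-178, where fmo-4 lost its call, and 0 in thinned counts. fmo-2 had 4.34, 3.75 and 4.26 CPM in nhr-45, against 0.412, 0.564 and 0.996 CPM in nhr-178 (log2 2.60 ± 0.69, SE, adjusted p = 0.00638).

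Among lipid carriers, lbp-8 stood at the extreme. This gene encodes a fatty-acid-binding protein that carries lipid from lysosomes to the nucleus in C. elegans. It had no count in any of the 3 nhr-45 libraries on antimycin, against 17.1, 14.2 and 13.2 CPM in nhr-178, at least 78.9-fold lower with 3 counts over the 3 libraries as the floor. WT on antimycin averaged 7.40 CPM, and on DMSO no group exceeded a mean of 0.388 CPM. Of 9 tested lipid-binding protein genes 2 were lower, the other being lbp-1, and 0 higher by edgeR, DESeq2 or an unadjusted p below 0.05 (lbp-1 log2 -0.74 ± 0.21, SE). The call of lbp-1 was lost without replicate 1 or 3 of nhr-45 or replicate 2 of nhr-178, which left 1. far-3, of the family that binds retinol and fatty acids, overlaps far-5 and had 3.29, 1.07 and 1.19 CPM in nhr-45, against 8.44, 12.2 and 14.8 CPM in nhr-178, and WT on antimycin was far above both at 48.4 CPM.

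Genes that activate and burn fatty acids were mixed. Acyl-CoA synthetases couple fatty acids to coenzyme A, and of 16 tested 4 (25%) were higher and 2 (12.5%) lower, against 15.7% and 8.54% over all tested genes. No lower call was left without replicate 2 or 3 of nhr-45, and 1 was left without any 1 replicate of nhr-178. acs-2, which feeds fatty acids into mitochondrial oxidation, had 47.5, 60.1 and 56.4 CPM in nhr-45, against 10.7, 11.7 and 13.7 CPM in nhr-178 (log2 2.17 ± 0.23, SE, adjusted p = 3.53e-08). acs-20 rose by less (log2 1.39 ± 0.20, SE). Among desaturases and elongases, 3 of 12 were higher (1 without replicate 2 of nhr-45 or replicate 3 of nhr-178) and 1 lower, and fat-3, the delta-6 desaturase, rose (log2 0.78 ± 0.15, SE) while fat-5, a palmitoyl desaturase that overlaps another gene, fell (log2 -2.06 ± 0.39, SE). The peroxisomal gene maoc-1, a hydratase of beta-oxidation in an overlapping locus, had 32.6, 31.1 and 34.6 CPM in nhr-45, against 65.7, 73.2 and 72.3 CPM in nhr-178.

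Amino acid metabolism showed single changes. Cystathionine gamma-lyase makes cysteine, and its gene cth-1 had 54.4, 48.8 and 71.8 CPM in nhr-45, against 12.4, 11.7 and 15.2 CPM in nhr-178 (log2 2.16 ± 0.27, SE, adjusted p = 4.79e-07). WT averaged 11.3 CPM on antimycin, and the DMSO means lay between 15.6 and 16.6 CPM in all 3 strains. pmt-1, a methyltransferase of phosphatidylcholine synthesis, was higher by 0.71 ± 0.16 on the log2 scale (SE). For the propionate shunt, 5 tested, and the vitamin B12-dependent route, 6 tested, edgeR called 0 genes, and 0 had an unadjusted p below 0.05 or a call by DESeq2. Within the shunt, acdh-1 had 50.6, 53.6 and 39.8 CPM in nhr-45, against 44.9, 44.1 and 50.5 CPM in nhr-178.

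Of the 10 highest genes under the naming rule, 6 were cuticle collagens (col-176, col-127, col-137, col-169, col-41 and col-133). The cuticle is the collagen exoskeleton that the epidermis secretes anew at each moult. Cuticle collagens of the col series have 152 genes in the table and 98 were tested. Of these, 84 (85.7%) were called higher and 3 (3.06%) lower, against 15.7% and 8.54% over all tested genes. A gene that passed the filter only through its nhr-45 counts had to differ, so the count describes the genes tested and not the family, and the same holds for the other lists of cuticle, moulting, epidermal and sperm genes below. The median log2 fold change was 5.01, or 4.63 with 10 members at 0 in either strain put at their bound. The summed level differed far less than that median, at 33260, 31180 and 30540 CPM in nhr-45, against 17330, 16930 and 15850 CPM in nhr-178 and 22700 to 23010 CPM in WT on antimycin. On DMSO the sums stood in the same order, at 27750 to 31100 CPM in nhr-45, 14820 to 17280 CPM in nhr-178 and 20820 to 25230 CPM in WT.

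col-176 had 26.98, 18.23 and 39.83 CPM in nhr-45 and no count in nhr-178 on antimycin, at least 211.8-fold higher. col-127 and col-137 were likewise at 0 in nhr-178, at least 101.2-fold and 81.2-fold higher. Among collagens counted in both strains, col-81 had 388.1, 594.7 and 488.6 CPM in nhr-45, against 5.77, 4.29 and 7.69 CPM in nhr-178 (log2 6.38 ± 0.24, SE, adjusted p = 1.48e-17), and WT on antimycin averaged 39.0 CPM. col-109 had 299.2, 377.5 and 406.3 CPM in nhr-45, against 3.50, 4.06 and 5.41 CPM in nhr-178 (log2 6.36 ± 0.27, SE), with 15.5 CPM in WT. The nhr-45 values exceeded the nhr-178 values many-fold in each of these genes, with WT between them and nearer to nhr-178 in CPM.

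The 3 lower collagens, named after their values were seen, were scarce. col-36 and col-43 had at most 0.235 and 0.117 CPM in any nhr-45 library, against at least 1.65 and 0.854 CPM in every nhr-178 library. col-135 had 3.17, 2.68 and 4.09 CPM in nhr-45, against 8.854, 7.107 and 10.96 CPM in nhr-178 (log2 -1.38 ± 0.38, SE, adjusted p = 0.00797). On DMSO the col series had 34 members higher and 5 lower in nhr-45. Between the media, the contrast of 45 members differed, in 40 of them toward higher in nhr-45 on antimycin.

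Collagens in which mutations alter body shape or blister the cuticle were tested for 12 of 19 genes, and 12 were called higher. They summed to 1148, 651.0 and 1356 CPM in nhr-45, against 30.47, 24.25 and 43.27 CPM in nhr-178, so members could pass the filter through nhr-45 alone and the count is no support for the family. Those tested had a median log2 fold change of 5.34 or 4.72 with those at 0 in either strain put at their bound. dpy-13 had 82.4, 98.1 and 110.3 CPM in nhr-45, against 1.03, 1.92 and 2.14 CPM in nhr-178 (log2 5.77 ± 0.28, SE, adjusted p = 3.39e-15). For dpy-4 the levels were 46.7, 54.7 and 51.2 CPM in nhr-45, against 0.824, 0.226 and 0.854 CPM in nhr-178. sqt-3, which overlaps a non-coding gene, varied within nhr-45, at 921.9, 399.0 and 1096 CPM, against 23.68, 17.03 and 33.02 CPM in nhr-178. It made up most of the list's sum in each of these libraries. On DMSO edgeR called 0 of the 12, with 2 higher at an unadjusted p below 0.05 and 0 by DESeq2. The lack of calls does not show that the strains were alike there. The list's sums on DMSO did not overlap, at 18.21 to 55.27 CPM in nhr-45 and 13.51 to 17.34 CPM in nhr-178. The median log2 fold change on DMSO was 1.16. For 5 of the 12 the difference between the media was called. A stricter filter or thinned counts, which leave fewer genes to test, gave 7 higher calls on antimycin in each case.

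Enzymes that process collagen had a median log2 fold change of 0.73. Of 11 tested, 5 (45.5%) were higher, among them dpy-18, the catalytic subunit of prolyl 4-hydroxylase, at 125.2, 113.7 and 114.6 CPM in nhr-45, against 44.7, 46.4 and 58.8 CPM in nhr-178 (log2 1.24 ± 0.16, SE, adjusted p = 8.39e-07). The proprotein convertase gene bli-4, in a locus shared with mut-2, was higher by 0.64 ± 0.14 on the log2 scale (SE). Cuticlins, which form insoluble cuticle layers, had 6 of 9 tested members higher, of 35 in the table. Their sum was 201.1, 209.7 and 237.0 CPM in nhr-45, against 37.68, 48.39 and 49.39 CPM in nhr-178, so here too members could pass the filter through nhr-45 alone. cut-2 had 49.74, 43.97 and 57.03 CPM in nhr-45, against 0.206, 0.902 and 0.854 CPM in nhr-178.

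Moulting and apical matrix genes were higher in 12 of 17 tested members (70.6%), with a median log2 fold change of 3.09, and edgeR called 0 lower, as did DESeq2 and an unadjusted p below 0.05. mlt-8, which is needed for moulting, had 175.0, 204.3 and 190.7 CPM in nhr-45, against 10.1, 7.90 and 5.69 CPM in nhr-178 (log2 4.60 ± 0.25, SE, adjusted p = 5.79e-14). Its level was 9.94 CPM in WT on antimycin and 5.21 to 6.50 CPM in the 3 strains on DMSO. The contrast differed between the media for 7 members of the list, mlt-8 among them (log2 4.63 ± 0.37, SE). acn-1, an inactive relative of angiotensin-converting enzyme that moulting requires, had 21.1, 23.1 and 20.3 CPM in nhr-45, against 3.29, 2.14 and 2.99 CPM in nhr-178, in a locus shared with pnk-4.

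Hedgehog-related genes encode secreted and membrane proteins of the nematode epidermis. Of 42 tested, 27 (64.3%) were higher and 0 lower by edgeR (3 lower at an unadjusted p below 0.05, 0 by DESeq2), with 1 called lower without replicate 2 of nhr-45. grl-16 had 120.6, 147.5 and 149.6 CPM in nhr-45, against 0.824, 0.902 and 3.84 CPM in nhr-178 (log2 6.19 ± 0.42, SE, adjusted p = 3.65e-12). wrt-10 had 36.7, 46.7 and 61.8 CPM in nhr-45, against 0.618, 0.790 and 0.427 CPM in nhr-178 (log2 6.23 ± 0.50, SE). On DMSO 1 member was called.

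Regulators of larval timing were split. Of 15 tested, 7 were higher and 2 lower, the 2 being lin-41 and nhr-23, and 1 was lower in each omission of an antimycin library of the mutants but that of replicate 3 of nhr-45. lin-42, the worm's Period homologue whose transcript cycles with the moults, had 22.1, 17.7 and 51.4 CPM in nhr-45, against 2.88, 3.05 and 2.70 CPM in nhr-178 (log2 3.42 ± 0.43, SE, adjusted p = 7.62e-07). lin-29, a zinc-finger gene of the larva-to-adult switch, was higher by 1.38 ± 0.26 (log2, SE) and lin-14, an early-larval timing gene, by 0.81 ± 0.14, both in loci shared with another gene. nhr-23, a nuclear receptor needed for moulting, had 59.01, 42.36 and 65.54 CPM in nhr-45, against 81.3, 73.3 and 81.0 CPM in nhr-178 (adjusted p = 0.0423). Its call did not survive several single-library omissions. It was also lost with RLE or upper-quartile scaling, a stricter filter, DESeq2, the compared groups alone or thinned counts. Whether the strains were at the same point of development when collected was not tested, and stage and genotype cannot be told apart in these groups.

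Epidermal antimicrobial peptides of the cnc and nlp families were higher for 9 of 16 tested members (56.2%), with 0 called lower by edgeR, DESeq2 or an unadjusted p below 0.05. Their sum was 1430, 1405 and 1286 CPM in nhr-45, against 594.6, 679.4 and 674.5 CPM in nhr-178 on antimycin. WT on antimycin lay between, at 879.5 to 929.9 CPM. The sums were also apart on DMSO, at 1336 to 1402 CPM in nhr-45 and 669.3 to 674.2 CPM in nhr-178. There edgeR called 1 member higher and 1 lower, and the difference between the media was called for 3. nlp-25 had 50.1, 52.02 and 54.81 CPM in nhr-45, against 0.618, 1.81 and 2.56 CPM in nhr-178 (log2 4.88 ± 0.27, SE, adjusted p = 7.56e-14). Here WT on antimycin, at 36.2 CPM, was nearer to nhr-45. On DMSO, nlp-25 averaged 6.603 CPM in nhr-45, 3.998 CPM in nhr-178 and 39.5 CPM in WT. General epidermis markers outside the collagens were higher for 4 of 9, with sums of 490.0, 379.1 and 418.9 CPM in nhr-45, against 322.6, 281.1 and 321.6 CPM in nhr-178.

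**Figure D3:**
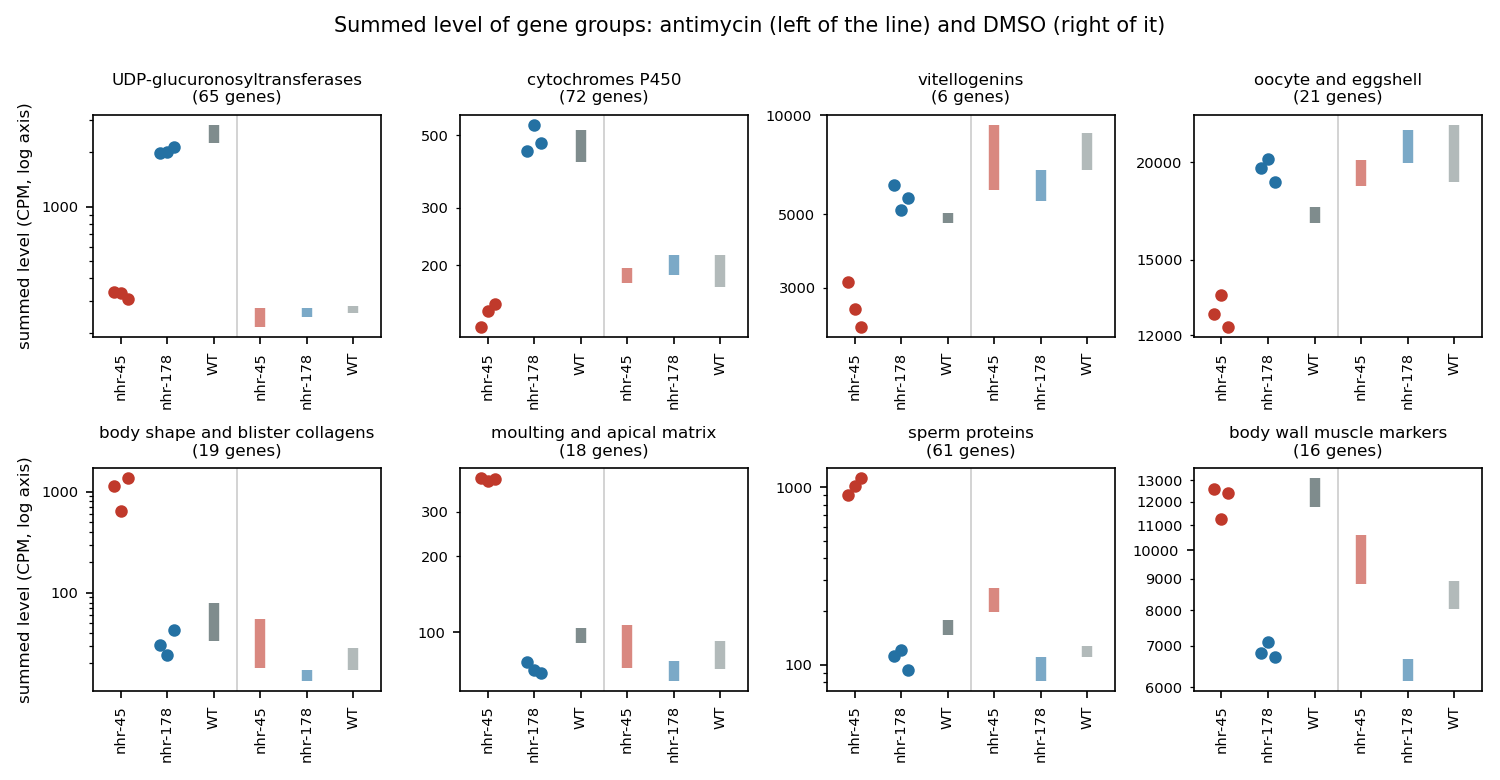
Summed CPM of 8 gene lists, on log axes. Points are the 3 libraries of nhr-45 and of nhr-178 on antimycin, and bars run from the lowest to the highest of 3 libraries for WT on antimycin and for the 3 strains on DMSO. The transferase and P450 sums are low in nhr-45 beside nhr-178 and WT on antimycin, where most of the transferase sum is ugt-9. Most of the body shape collagen sum in nhr-45 and nhr-178 on antimycin is sqt-3. The sums of body shape collagens, moulting genes and sperm proteins are high in nhr-45, those of vitellogenins and oocyte genes low, and body wall muscle is low in nhr-178 in both media.

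The germline genes separated by sex of the gamete. Sperm proteins were tested for 46 of 61 genes, and 44 (95.7%) were higher in nhr-45, with 0 lower by edgeR, DESeq2 or an unadjusted p below 0.05. Most are major sperm proteins, which drive the crawling of nematode sperm and signal to oocytes. Their median log2 fold change was 5.24, or 4.99 with 6 members at 0 in either strain put at their bound. msp-57 had 213.8, 181.8 and 222.3 CPM in nhr-45, against 4.32, 4.51 and 2.56 CPM in nhr-178, and 15.8 CPM in WT on antimycin. Reads of near-identical msp genes can be split in several ways, so the list's sum is the firmer value. Calls numbered 26 with a stricter filter and 22 in thinned counts. That sum was 910.9, 1019 and 1124 CPM in nhr-45, against 111.4, 121.4 and 92.9 CPM in nhr-178 and 147.0 to 179.3 CPM in WT on antimycin.

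Sperm genes also differed on DMSO, where 23 were called higher. Their sum there was 197.4 to 270.3 CPM in nhr-45, against 81.3 to 110.5 CPM in nhr-178 and 110.7 to 127.0 CPM in WT. For 0 of the 46 was the difference between the media called by edgeR or DESeq2, with 2 at an unadjusted p below 0.05. The lack of calls does not show that the steps were alike. In nhr-45 the sum was 910.9, 1019 and 1124 CPM on antimycin, against 197.4 to 270.3 CPM on DMSO. In nhr-178 it was 111.4, 121.4 and 92.9 CPM on antimycin, against 81.3 to 110.5 CPM on DMSO. The sums were not tested. Genes that set sperm or oocyte fate had 2 of 14 lower, fog-2 and fem-3 (log2 -0.62 ± 0.17 and -0.59 ± 0.18, SE). The call of fog-2 was lost without replicate 3 of nhr-45 and that of fem-3 without replicate 2 of nhr-45 or of nhr-178, which left 1 in each case.

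Yolk proteins were lower. The intestine makes vitellogenins for the oocytes, and all 6 genes of the list were tested and called lower, with a median log2 fold change of -1.198. vit-3 had 130.0, 111.0 and 83.9 CPM in nhr-45, against 356.0, 238.4 and 250.9 CPM in nhr-178 (log2 -1.38 ± 0.22, SE, adjusted p = 2.33e-05). The summed list came to 3125, 2594 and 2282 CPM in nhr-45, against 6140, 5149 and 5628 CPM in nhr-178 and 4722 to 5057 CPM in WT on antimycin. On DMSO edgeR, DESeq2 and an unadjusted p below 0.05 each called 0 of the 6, and the difference between the media was called for 6. Reads could be shared among vit genes.

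The oocyte side fell with the yolk. Of 21 oocyte and eggshell genes, 18 (85.7%) were lower and 0 higher by edgeR, DESeq2 or an unadjusted p below 0.05, with a median log2 fold change of -0.61. rme-2, the yolk receptor of the oocyte, had 104.1, 107.8 and 114.7 CPM in nhr-45, against 211.0, 192.6 and 178.3 CPM in nhr-178 (log2 -0.83 ± 0.14, SE, adjusted p = 6.82e-05). mex-3, an RNA-binding regulator of oocytes and embryos, had 800.6, 859.1 and 750.4 CPM in nhr-45, against 1353, 1238 and 1403 CPM in nhr-178. DNA replication and cyclin genes were lower in 12 of 17 (70.6%), a count of 8 to 11 without any 1 antimycin library and of 8 without replicate 2 of nhr-45. cyb-1, a B-type cyclin, had 447.1, 340.0 and 373.7 CPM in nhr-45, against 703.1, 573.3 and 673.6 CPM in nhr-178 (log2 -0.74 ± 0.12, SE). In whole animals, fewer cells of a type and less RNA per cell cannot be told apart, here or in the results that follow.

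Germ granule and meiosis genes were closer to even, with 3 of 19 called lower, and 5 without replicate 3 of nhr-178. car-1, an RNA granule protein, had 1155, 1014 and 997.9 CPM in nhr-45, against 1531, 1528 and 1616 CPM in nhr-178 (log2 -0.56 ± 0.10, SE, adjusted p = 0.000162). The proteasome degrades tagged proteins. Of 33 tested, 13 (39.4%) were called lower by small steps (median log2 -0.30), but the count was 7 with RLE or upper-quartile scaling, 4 without replicate 2 of nhr-45, 6 without replicate 1 or 3 of nhr-45 or replicate 2 of nhr-178, and 5 without replicate 3 of nhr-178. rpn-1, a regulatory subunit, had 827.9, 869.8 and 908.5 CPM in nhr-45, against 1299, 1248 and 1200 CPM in nhr-178.

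Body wall muscle genes were higher in nhr-45 in 11 of 15 tested members (73.3%), with a median log2 fold change of 0.69 and 0 lower by edgeR, DESeq2 or an unadjusted p below 0.05. unc-54, the main muscle myosin heavy chain, had 2572, 1759 and 2177 CPM in nhr-45, against 1098, 828.2 and 779.9 CPM in nhr-178 (log2 1.27 ± 0.18, SE, adjusted p = 5.66e-06). WT on antimycin was above both at 4325 CPM. lev-11, tropomyosin, had 4151, 3671 and 3929 CPM in nhr-45, against 2517, 2558 and 2549 CPM in nhr-178. The muscle sum was 12600, 11240 and 12400 CPM in nhr-45, against 6825, 7109 and 6708 CPM in nhr-178 and 11780 to 13100 CPM in WT on antimycin, so nhr-178 was the strain apart from WT. On DMSO, 8 members were called higher and the sums were 8834 to 10600 CPM in nhr-45, 6144 to 6660 CPM in nhr-178 and 8035 to 8932 CPM in WT. The difference between the media was called for 0 of 15 by edgeR and DESeq2, with 1 at an unadjusted p below 0.05.

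Pharynx markers were higher for 9 of 12 tested members (75.0%) and lower for 1, phat-3 (2 without replicate 2 of nhr-45 or of nhr-178). With 1 member at 0 in either strain, members could pass the filter through nhr-45 alone, so the count describes only the genes tested. The list summed to 564.0, 452.6 and 529.9 CPM in nhr-45, against 243.2, 229.2 and 242.7 CPM in nhr-178. The pharyngeal myosin gene myo-2 had 131.4, 119.6 and 141.3 CPM in nhr-45, against 63.4, 55.6 and 62.1 CPM in nhr-178 (log2 1.12 ± 0.16, SE, adjusted p = 4.45e-06), with 60.3 CPM in WT on antimycin. On DMSO it averaged 41.4 CPM in nhr-45, 60.5 CPM in nhr-178 and 48.4 CPM in WT, and the difference between the media was called (log2 1.68 ± 0.23, SE). phat-3, of the pharyngeal gland, had 0.939, 0.536 and 0.681 CPM in nhr-45, against 3.71, 6.09 and 5.12 CPM in nhr-178, opposite to phat-4 of the same family (log2 2.298 ± 0.327, SE).

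Intestine markers did not move as a block, with 5 of 15 higher, 1 lower (2 without replicate 3 of nhr-45 and 3 without replicate 1 of nhr-178) and a median log2 fold change of -0.04. The intermediate filament gene ifb-2 had 467.4, 404.3 and 516.3 CPM in nhr-45, against 153.6, 116.4 and 121.4 CPM in nhr-178 (log2 1.83 ± 0.14, SE, adjusted p = 7.21e-11), and ifc-2 was higher by 1.38 ± 0.13 (log2, SE). The protease gene cpr-1 was the lower one, at 287.0, 315.9 and 278.5 CPM in nhr-45, against 1117, 1270 and 1182 CPM in nhr-178. Summed intestine markers were 4308, 4091 and 4473 CPM in nhr-45, against 4835, 5351 and 5178 CPM in nhr-178. Neuron markers were higher for 2 of 15, unc-13 and unc-104 (4 without replicate 2 of nhr-45), with sums of 669.2, 541.6 and 693.5 CPM in nhr-45, against 579.4, 584.4 and 563.0 CPM in nhr-178, which overlapped. The 2 coelomocyte markers tested had a summed 5.28, 3.22 and 4.77 CPM in nhr-45, against 4.12, 5.19 and 4.41 CPM in nhr-178, and 0 were called by edgeR, DESeq2 or an unadjusted p below 0.05. The part of any shift in tissue makeup in the other results was not tested.

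Secreted and lysosomal gut proteins were lower in part. Lysozymes digest bacterial walls, and of 10 tested 3 were lower. Lysozyme transcripts summed to 1382, 1362 and 1309 CPM in nhr-45, against 2023, 1955 and 2199 CPM in nhr-178 on antimycin. WT on antimycin, at 1272 to 1500 CPM, was on the side of nhr-45 in this sum. On DMSO 3 members were also called lower, with sums of 1102 to 1350 CPM in nhr-45 and 1474 to 1786 CPM in nhr-178. lys-2 had 284.9, 269.7 and 257.0 CPM in nhr-45, against 637.5, 728.0 and 803.6 CPM in nhr-178 (log2 -1.42 ± 0.13, SE, adjusted p = 3.58e-09). ilys-2 had 1.29, 0.536 and 1.02 CPM in nhr-45, against 25.5, 29.8 and 32.6 CPM in nhr-178 (log2 -4.73 ± 0.53, SE), and WT on antimycin averaged 18.9 CPM. Cathepsins and aspartic proteases had 7 of 22 lower, 4 without replicate 2 of nhr-178, and 3 higher. Their sum was 3555, 3472 and 3672 CPM in nhr-45, against 4909, 5592 and 5483 CPM in nhr-178 on antimycin. WT on antimycin, at 3403 to 4053 CPM, was again on the side of nhr-45. asp-12 had 0.704, 0 and 1.19 CPM in nhr-45, against 14.4, 16.5 and 18.4 CPM in nhr-178, while WT on antimycin had 0.681 CPM, so the level in nhr-178 was the one apart.

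Neuropeptides and insulins were higher for 25 of 102 tested members (24.5%) and lower for 4, and the higher count was 15 and 14 without replicate 1 or 3 of nhr-45 and 16 without any 1 replicate of nhr-178. ins-6, an insulin-like peptide that promotes exit from the dauer stage, had 0.117, 0.536 and 0.511 CPM in nhr-45, against 8.24, 11.3 and 9.96 CPM in nhr-178 (log2 -4.89 ± 0.56, SE, adjusted p = 1.18e-07). It was lower on DMSO too, with means of 1.53 CPM in nhr-45, 7.01 CPM in nhr-178 and 5.82 CPM in WT. nlp-67, a neuropeptide-like gene, had 23.2, 32.7 and 29.6 CPM in nhr-45, against 2.27, 3.27 and 0.569 CPM in nhr-178.

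Other nuclear hormone receptors changed little as a family. Of the tested members, 9 (8.65%) were higher and 4 (3.85%) lower, both shares under those of all tested genes, and 2 were lower without replicate 1 of nhr-45 and 0 with a stricter filter. nhr-97 had 71.2, 76.7 and 64.9 CPM in nhr-45, against 43.4, 43.2 and 39.9 CPM in nhr-178 (log2 0.74 ± 0.16, SE). nhr-142, in a locus shared with a non-coding gene, was near 0 in nhr-45, at 0.117, 0 and 0 CPM, against 0.824, 2.59 and 3.84 CPM in nhr-178.

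Genes of mitochondria, the compartment that antimycin acts on, had few calls. Of 12 mitochondrial unfolded protein response genes 1 was called, the transcription factor gene dve-1, at 43.4, 47.2 and 36.3 CPM in nhr-45, against 11.1, 20.1 and 17.5 CPM in nhr-178 (log2 1.35 ± 0.23, SE, adjusted p = 6.38e-05). The chaperone hsp-6 had 232.2, 193.6 and 227.1 CPM in nhr-45, against 201.4, 219.0 and 228.7 CPM in nhr-178, ranges that overlapped (log2 0.01 ± 0.13, SE, adjusted p = 0.957). hsp-60 had 525.7, 536.3 and 459.6 CPM in nhr-45, against 624.3, 600.7 and 589.4 CPM in nhr-178 and was not called (adjusted p = 0.118). Complex III and cytochrome c had 3 of 13 (23.1%) higher. The cytochrome c gene cyc-2.2 had 8.92, 6.97 and 10.4 CPM in nhr-45, against 0.412, 0.338 and 0.285 CPM in nhr-178 (log2 4.64 ± 0.69, SE, adjusted p = 1.33e-05). It was also called higher on DMSO, though not in every single-library omission, and the difference between the media was not called. By a smaller step the list also held the core subunit gene ucr-2.1 at 70.7, 86.3 and 69.8 CPM in nhr-45, against 46.95, 46.93 and 41.27 CPM in nhr-178 (log2 0.74 ± 0.16, SE). Complexes I and II had 2 of 38 higher (4 without replicate 2 of nhr-45, 1 without replicate 3 of nhr-178) and complexes IV and V 1 of 22, which was lost without replicate 1 or 2 of nhr-45 or replicate 1 or 3 of nhr-178.

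Ribosomal proteins had 3 of 80 cytosolic members higher and 1 lower, and 1 of 70 mitochondrial members lower, and either lower call was lost in single-library omissions. Cytosolic heat shock genes had 5 of 13 higher and 2 lower, with no lower call left without replicate 2 of nhr-45 or of nhr-178. hsp-16.2, a small heat shock gene whose near-identical copies could share its reads, had 10.8, 19.3 and 14.1 CPM in nhr-45, against 3.50, 5.64 and 8.82 CPM in nhr-178, and WT on antimycin had 23.2 CPM. The intestinal thioredoxin gene trx-3, which overlaps gbb-2, had 47.6, 53.1 and 31.8 CPM in nhr-45, against 4.74, 3.05 and 5.41 CPM in nhr-178. gpd-3, a glycolytic gene often used for normalization, was called higher by a small step (log2 0.37 ± 0.13, SE, adjusted p = 0.0377), but not unfiltered (adjusted p = 0.0995) or without replicate 1 or 3 of either mutant (adjusted p = 0.0572 to 0.24), while cdc-42 (adjusted p = 0.157) and pmp-3 (adjusted p = 0.595) were not called.

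The same pair of mutants could be set side by side on DMSO, in libraries that the antimycin comparison does not use. Of 2663 genes called on antimycin and 358 on DMSO, 274 were called in the same direction in both, 238 higher and 36 lower, which is 10.3% of the antimycin calls and 76.5% of the DMSO calls. Another 16 were called in opposite directions. The difference between the media in the nhr-45 against nhr-178 contrast was tested directly and called for 633 genes (5.76%), 446 (4.06%) toward higher and 187 (1.7%) toward lower in nhr-45 on antimycin.

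**Figure D4:**
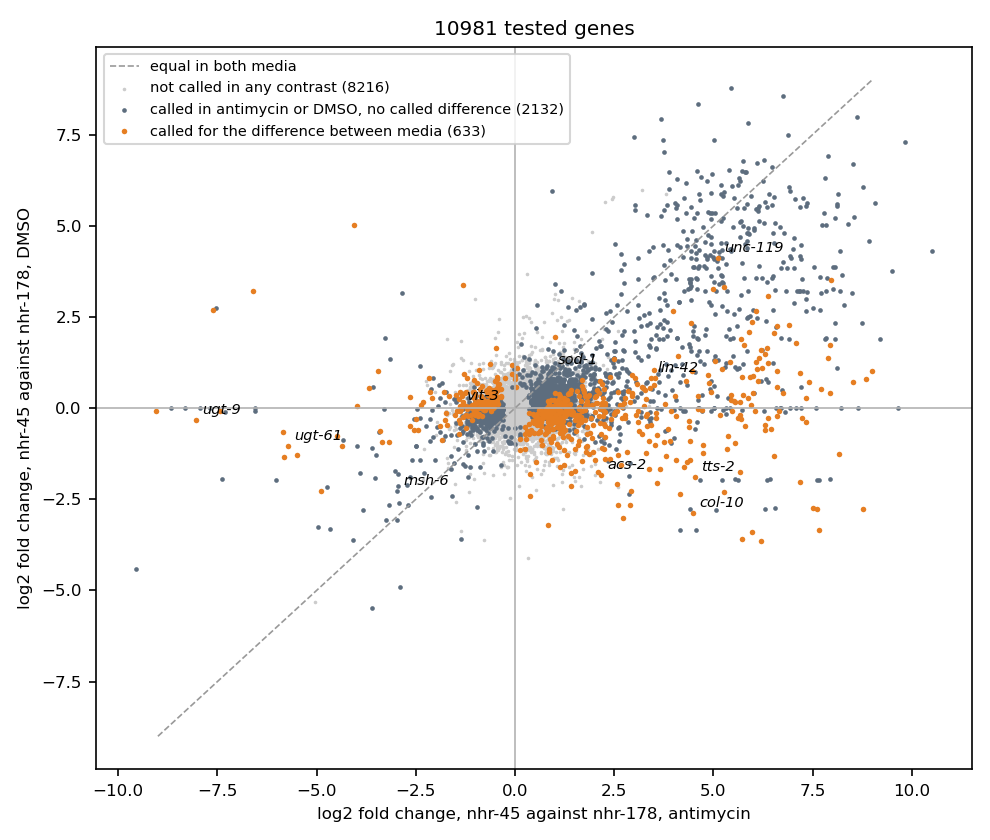
Log2 fold change of nhr-45 over nhr-178 for 10981 genes, on antimycin along the horizontal axis and on DMSO along the vertical axis, with the 633 genes called for the difference between the media in orange. Grey points spread far more along the antimycin axis than along the DMSO axis, and orange points lie at both ends of it.

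Of the 16 genes with opposite calls, 14 were higher in nhr-45 on antimycin and lower on DMSO. They were picked after their values were seen. acs-2 averaged 6.35 CPM in nhr-45 and 21.96 CPM in nhr-178 on DMSO (adjusted p = 1.35e-05), the reverse of its order on antimycin given above, and the difference between the media was 4.01 ± 0.34 on the log2 scale (SE, adjusted p = 4.26e-09). tts-2 had 143.4, 130.8 and 155.8 CPM in nhr-45, against 6.80, 6.09 and 5.69 CPM in nhr-178 on antimycin (log2 4.54 ± 0.27, SE). On DMSO its means were 5.73 CPM in nhr-45, 21.4 CPM in nhr-178 and 15.8 CPM in WT. The collagen col-10 had 57.4, 45.6 and 59.1 CPM in nhr-45, against 2.47, 1.58 and 3.27 CPM in nhr-178 on antimycin, and averaged 1.93 CPM in nhr-45 and 14.7 CPM in nhr-178 on DMSO.

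Also in this set were the collagen genes col-3, col-107 and col-144, the glyoxylate cycle gene icl-1, the nuclear receptor gene nhr-19, which overlaps mrpl-53, feh-1, dod-19, C50F4.8, C45E1.4, F15E6.3 and C25F9.6. The DMSO calls of col-3, col-107, icl-1, nhr-19 and feh-1 were lost in several single-library omissions, while those of acs-2, tts-2 and col-10 held in each omission run. The 2 genes in the opposite set, lower on antimycin and higher on DMSO, were B0035.13 and R04D3.2. B0035.13 had 37.31, 28.96 and 41.54 CPM in nhr-45, against 70.2, 77.0 and 104.7 CPM in nhr-178 on antimycin, and its call on DMSO was lost without replicate 1 or 3 of either mutant on DMSO.

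Some genes separated the strains in both media. They were 251 of the tested genes (2.29%), called in the same direction on antimycin and DMSO with no called difference between the media, which does not show that the steps were alike. F57G8.7 had 48.8, 54.7 and 34.1 CPM in nhr-45, against 0, 0.226 and 0 CPM in nhr-178 on antimycin, and averaged 48.5 CPM in nhr-45 and 0.178 CPM in nhr-178 on DMSO. WT was near nhr-178 in both media, at 0.0950 CPM on antimycin and 0.699 CPM on DMSO. clec-190, a C-type lectin gene that overlaps a small RNA gene, had 103.6, 92.2 and 74.1 CPM in nhr-45, against 5.35, 5.75 and 6.69 CPM in nhr-178 on antimycin, and averaged 371.5 CPM in nhr-45 and 22.2 CPM in nhr-178 on DMSO.

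Other genes of this kind were apart in nhr-178. The superoxide dismutase gene sod-1 (WBGene00004930, chromosome II, 6972706 to 6973887) had 2202, 2065 and 2239 CPM in nhr-45, against 1132, 1180 and 1145 CPM in nhr-178 on antimycin (log2 0.91 ± 0.10, SE, adjusted p = 9.14e-08). WT averaged 2668 CPM on antimycin, and on DMSO the means were 2277 CPM in nhr-45, 1108 CPM in nhr-178 and 2469 CPM in WT. art-1, its neighbour at 6970745 to 6972235, had 531.3, 501.4 and 469.0 CPM in nhr-45, against 292.2, 255.8 and 251.2 CPM in nhr-178, and WT averaged 505.4 CPM. cth-2, a second cystathionine gamma-lyase gene at 7056184 to 7057960, had 567.0, 607.6 and 518.2 CPM in nhr-45, against 266.2, 288.3 and 247.5 CPM in nhr-178, with 565.3 CPM in WT, and overlaps another gene. The kinesin gene unc-104, at 6994987 to 7010625, lies between sod-1 and cth-2, with antimycin levels of 15.8, 5.36 and 14.8 CPM in nhr-45, against 3.09, 5.08 and 3.99 CPM in nhr-178. Counting all 251 genes, apart in either strain, over 500 kb windows, chromosome II from 6500001 to 7000000 held 5 among 74 tested (6.76%), 4 higher and 1 lower, and 7000001 to 7500000 held 6 among 76 (7.89%), E04F6.9 included, against 2.29% over all tested genes. Some other windows had larger shares, and whether these genes cluster by position was not tested. Chromosome IV from 5000001 to 5500000 held 8 among 62 (12.9%), with the sperm genes msp-51, msp-55, msp-57, msp-59 and msp-65 included. From 9500001 to 10000000 it held 8 among 72 (11.1%), with msp-76, msp-78 and msp-81 included. The window with the nhr-178 gene (chromosome V, 1500001 to 2000000) held 2 among 31 (6.45%). That with the nhr-45 gene (chromosome X, 4500001 to 5000000) held 1 among 50 (2%), against 2.29% over all tested genes.

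**Figure D5:**
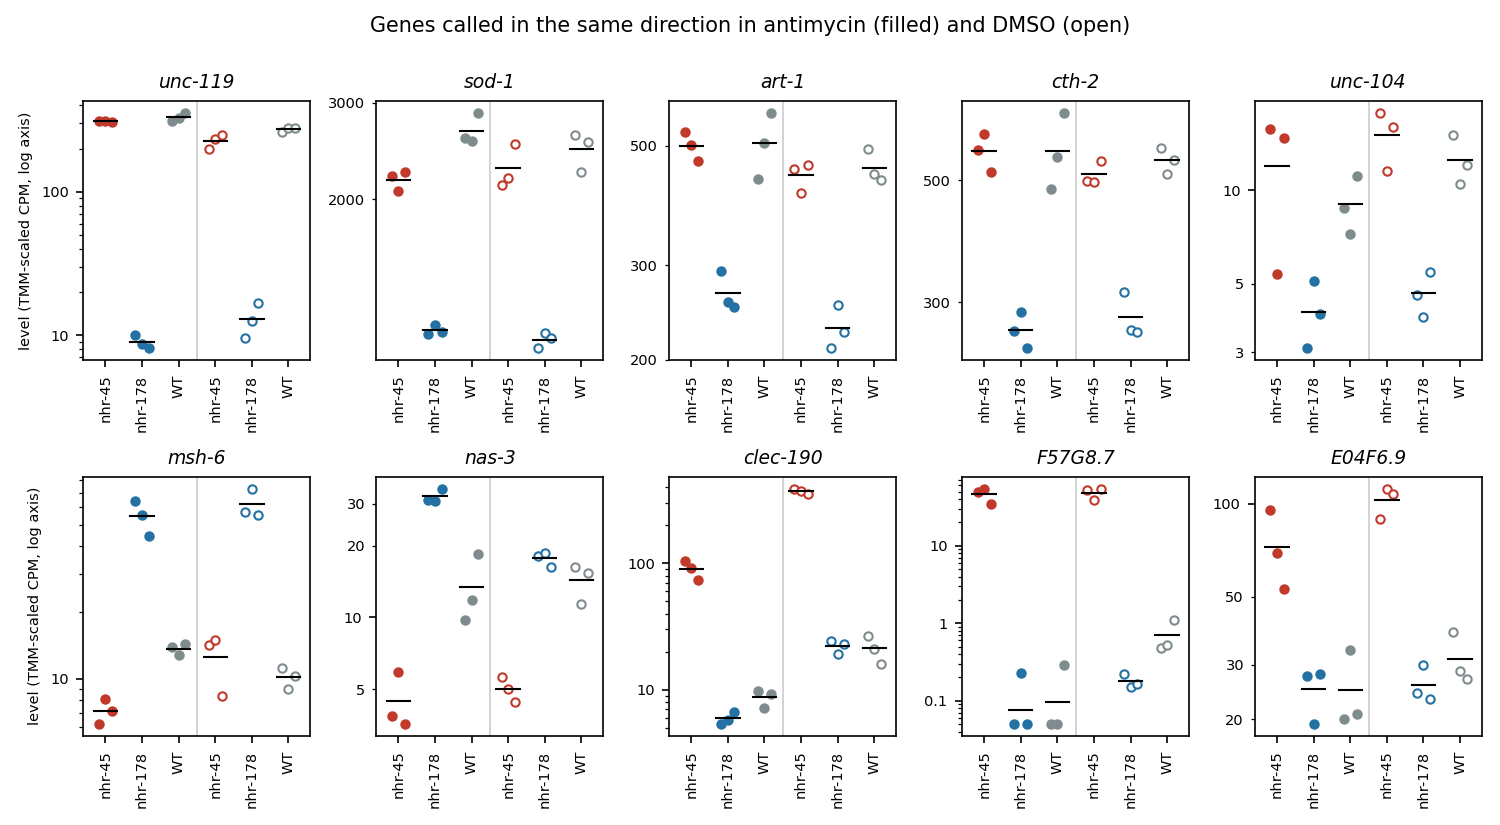
Level of 10 genes that separate the strains in both media, in CPM on log axes, with nhr-45, nhr-178 and WT from left to right, filled points for antimycin, open points for DMSO and a line at the mean of 3 libraries. nhr-178 stands apart from WT for unc-119, sod-1, art-1, cth-2, unc-104 and msh-6, and nhr-45 for clec-190, F57G8.7 and E04F6.9.

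The gene unc-119 (WBGene00006843, chromosome III, 10902641 to 10908935) also separated the strains in both media. It encodes a chaperone for lipid-modified proteins that neurons need, and its rescue is a common marker in worm transgenesis. It had 311.1, 312.6 and 304.2 CPM in nhr-45, against 10.1, 8.69 and 8.11 CPM in nhr-178 on antimycin (log2 5.12 ± 0.17, SE, adjusted p = 2.36e-18). WT averaged 332.0 CPM on antimycin. On DMSO it had 199.4, 234.6 and 247.5 CPM in nhr-45, against 9.585, 12.61 and 16.84 CPM in nhr-178 and a mean of 271.9 CPM in WT. The difference between the media was called (log2 1.01 ± 0.23, SE, adjusted p = 0.0057), but not without replicate 3 of nhr-178 on DMSO (adjusted p = 0.0563). The low level is in all 6 nhr-178 libraries, and no label lists an unc-119 allele.

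msh-6, of DNA mismatch repair, ran the other way. It had 6.22, 8.04 and 7.15 CPM in nhr-45, against 63.8, 55.4 and 44.7 CPM in nhr-178 on antimycin (log2 -2.98 ± 0.23, SE, adjusted p = 6.34e-11), and averaged 12.5 CPM in nhr-45 and 62.0 CPM in nhr-178 on DMSO. WT averaged 13.7 CPM on antimycin and 10.1 CPM on DMSO, so nhr-178 was again apart.

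The position of WT can be read for every called gene, although no WT library entered the comparison other than through the shared estimate of spread and the filter on low counts. On the log2(CPM + 0.5) scale, the WT mean on antimycin was nearer to nhr-178 than to nhr-45 for 1302 of the 1725 genes higher in nhr-45 (75.5%), and for 630 of the 938 genes lower in nhr-45 (67.2%). For the others, 423 higher and 308 lower, nhr-178 was the farther strain, as for unc-119, sod-1 and asp-12.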

How the data were processed

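The authors deposited one table of raw read counts per gene for 18 libraries of whole animals. Bowtie2, RSEM, DESeq2 and R 3.6.3 are listed, without roles, per the submitters' processing notes. The genome build, strandedness and the treatment of reads that map to several genes were not given in the sources read, so near-identical genes (msp, vit, hsp-16, cyp-33C, ugt-1 and ugt-2) and overlapping genes are uncertain. Of 23368 genes, 23363 had a position in the WBcel235 annotation, which may differ from the authors' build.

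Counts were tested with edgeR 4.0.16 (R 4.3.3): TMM scaling, filterByExpr by group (10981 genes kept), quasi-likelihood fit over all 18 libraries with 1 mean per group and 12 residual degrees of freedom, two-sided, Benjamini-Hochberg adjusted p below 0.05. The biological coefficient of variation was 17.1%. The SE is the size of the log2 fold change over the square root of F. In data simulated from these libraries, the antimycin contrast called 76 of 100 genes changed by 1 log2 unit. It called 100 of 100 changed by 2. Such changes were placed only where the average level reached 5 CPM, so these shares do not extend to scarcer genes. Far fewer genes were changed in the simulation than the 2663 called in the data, and its false calls are not given here. Totals ranged from 1772887 to 9488037 counts, and the libraries compared differed beyond sampling noise (chi-square per degree of freedom 6.25 to 12.6), so none was taken as a duplicate. A group without counts was given a floor of 3 counts over the group, 0.184 CPM in nhr-45 and 0.145 CPM in nhr-178 on antimycin. Floors and exact intervals cover counting error only.

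The members and the 63 gene lists were chosen with earlier results of these data known. Named genes are the 10 highest and 10 lowest called genes (mean of 5 CPM or more, libraries of the strains not overlapping), the up to 4 called members of a list with the smallest adjusted p, the 5 most abundant called genes in each direction, and a few reference genes. Those named as picked after their values were seen, and ugt-30, fmo-2, unc-54, phat-3, nhr-23 and the genes that separate the strains in both media, fall outside that rule. Alternatives were other scaling, filters, DESeq2 1.42.0, the compared groups alone, a replicate block, thinned counts and each library left out.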

Additional observations from a re-analysis of the deposited data

Results flagged for a closer look

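Of the 20 genes that were highest or lowest on antimycin under the naming rule, 10 had a contrast that differed between antimycin and DMSO by a direct test (edgeR, adjusted p over all tested genes), which is what brings them here. Each value is the log2 fold change of nhr-45 over nhr-178 on antimycin minus that on DMSO.

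For genes lower in nhr-45 on antimycin, the difference was -7.7011 for ugt-9, -8.9497 for cyp-33C5, -4.2267 for cyp-25A2, -4.684 for ugt-61, -5.1855 for ugt-1, -4.4843 for cyp-33C4, -10.2913 for gst-33 and -2.6174 for ins-6. ugt-9 (adjusted p = 1.81e-13), cyp-33C5 (1.44e-05) and cyp-25A2 (1.67e-05) held under each alternative run. Thinning the counts ended the call for ugt-61 (adjusted p = 0.109), ugt-1 (0.919), cyp-33C4 (0.949), gst-33 (1.0) and ins-6 (0.394), and those of cyp-33C4 and ins-6 (adjusted p = 0.0433 and 0.0455) were also lost in most single-library omissions. gst-33 was lost without replicate 1 of nhr-45 on DMSO.

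For genes higher in nhr-45 on antimycin, the difference was 7.8092 for col-169, which held throughout, and 4.4542 for col-133, which was lost without replicate 2 of nhr-178 on DMSO (adjusted p = 0.784).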

How the results depend on the processing

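The antimycin comparison called 2039 to 3030 genes with other scaling, filters, DESeq2 or the compared groups alone. Replicate numbers did not pair the samples (correlations of deviations 0.0309, 0.0552 and -0.00207), and a replicate block called 2681 genes, among them 96.9% of the 2663 called without it. Lower calls were 738 with RLE and 710 with upper-quartile scaling, against 938. The share of calls that were higher was 64.1% to 73.4%. Leaving out 1 library gave 2118 to 2416 calls on antimycin (1483 to 1770 higher, 635 to 766 lower, 1314 to 1504 at least 2-fold), 224 to 357 on DMSO (172 to 288 higher, 52 to 83 lower) and 440 to 651 for the difference between the media (306 to 443 higher, 114 to 208 lower). Thinned to the smallest library, the counts were 1583 (1088 higher, 495 lower, 866 at least 2-fold), 174 (134 higher, 40 lower) and 351 (266 higher, 85 lower), since fewer counts remained. Fitting the compared groups alone gave 192 on DMSO (148 higher, 44 lower), and no filter gave 298 lower calls for the difference between the media. The cause was not tested. For the gene lists, thinned counts gave 5 higher cnc and nlp peptides (against 9), 3 higher cuticlins (against 6), 1 higher cathepsin (against 3), 1 higher transferase (against 5) and 2 lower neuropeptides (against 4). Of 245 named genes, 191 kept direction and call throughout the antimycin alternatives. Signs reversed in genes not called: nhr-45 (-0.0714 to 0.2201 over the omissions), hsp-6 (-0.0228 unfiltered, -0.0518 to 0.1207 over the omissions), acdh-1 (-0.0012 unfiltered, -0.0016 without replicate 2 of nhr-45 and replicate 1 of wild type on antimycin, the libraries with few counts, -0.0225 to 0.1589 over the omissions) and pmp-3 (-0.2659 to 0.0242 over the omissions).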

Other observations

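Several families outside the groups above also held called genes on antimycin, set here against 15.7% higher and 8.54% lower over all tested genes. Transthyretin-related genes, a large nematode family of secreted proteins, were higher for 13 of 39 tested members (33.3%) and lower for 1 (2.56%), with a median log2 fold change of 0.42. ttr-34 had 29.7, 36.5 and 31.2 CPM in nhr-45, against 11.3, 8.12 and 9.39 CPM in nhr-178 (log2 1.75 ± 0.22, SE, adjusted p = 5.56e-07). ttr-18 had 151.9, 153.4 and 151.2 CPM in nhr-45, against 60.95, 78.6 and 61.6 CPM in nhr-178, and WT on antimycin was at 140.4 CPM, on the side of nhr-45. Saposin-like genes, which include pore-forming peptides against bacteria, had 4 of 18 (22.2%) lower and 2 (11.1%) higher, and spp-4 had 12.8, 16.1 and 13.3 CPM in nhr-45, against 32.9, 40.6 and 28.9 CPM in nhr-178. Acid phosphatases had 4 of 11 (36.4%) higher and 1 lower, which was 0 without replicate 1 of nhr-45 or replicate 2 of nhr-178, and pho-8 had 12.8, 9.12 and 13.6 CPM in nhr-45, against 0.412, 0.451 and 2.42 CPM in nhr-178.

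In the next 3 lists the shares lay near those of all tested genes, so only single genes are described. Histone genes had 5 of 26 (19.2%) higher and 2 (7.69%) lower, with no lower call without replicate 2 of nhr-178. The replacement histone gene his-71 had 162.6, 123.9 and 161.9 CPM in nhr-45, against 77.6, 76.9 and 67.2 CPM in nhr-178 (log2 1.02 ± 0.17, SE, adjusted p = 3.15e-05). Endoplasmic reticulum stress genes had 2 of 13 (15.4%) higher, 1 without replicate 1 of nhr-45 or replicate 2 of nhr-178, among them xbp-1 at 613.9, 736.8 and 570.1 CPM in nhr-45, against 449.1, 470.4 and 436.4 CPM in nhr-178. C-type lectins had 8 of 61 (13.1%) higher and 7 (11.5%) lower, and the lower count was 3 with RLE or upper-quartile scaling or without replicate 2 of nhr-178, and 4 without replicate 2 or 3 of nhr-45 or replicate 3 of nhr-178. clec-218 had 12.08, 7.508 and 10.21 CPM in nhr-45, against 1.24, 1.69 and 3.27 CPM in nhr-178.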
